A study of Rattus norvegicus with 50 samples.

Results

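Cxcl9, Cxcl10 and Cxcl11 encode the 3 chemokines that act on the receptor CXCR3, and Cxcr3 encodes that receptor. These 4 genes, chosen by name, were followed among the 13438 genes measured in lung tissue of male Fischer 344 rats that had breathed an aerosol of nickel subsulfide (Ni3S2), a poorly soluble nickel compound. The chamber air held 0.04, 0.08, 0.15 or 0.60 mg/m3 of Ni3S2 (about 0.03, 0.06, 0.11 or 0.44 mg of nickel per m3), and controls breathed air with 0 mg/m3. Daily sessions of 6 hours were given 5 times a week over 4 weeks (20 sessions) or 1 week (5 sessions), and each time had its own controls. Each of the 10 groups had 5 arrays, 1 rat per array, picked from 8 rats of that group for their RNA quality. The labels name the source as lung broncho-alveolar cells and the RNA as that of the distal airway tissue of the right caudal lobe, a mixture of epithelial, vascular, connective tissue and immune cells, so fewer cells of a type and less RNA per cell cannot be told apart in any value below. Values are log2 intensities normalized by RMA, which stands for robust multi-array average, and a change is an exposed minus a control mean on that log2 scale, given with its standard error. A gene was called higher or lower at a limma adjusted p under 0.05, adjusted over all 13438 genes. In the main fit these p-values rest on the spread between animals within groups, estimated per gene over all 10 groups. Where all arrays of a group are said to lie above all controls, the share of all genes that did so was not counted.

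CXCR3 is a receptor on activated and memory T cells, natural killer cells and some other lymphocytes, and its ligands draw these cells into inflamed tissue. All 3 ligands are known as genes that interferon gamma induces, and Cxcl10 and Cxcl11 are also induced readily by type I interferons through the factor complex that binds the interferon-stimulated response element. The receptor's messenger RNA is carried by the lymphocytes, while the ligands are made by macrophages, dendritic cells, epithelium and endothelium. In the lung the group is best known from viral infection, granulomatous disease and graft rejection.

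After 4 weeks the 3 ligands did not move as one. Cxcl10 and Cxcl11 were level in the controls and at 0.04 and 0.08 mg/m3 and higher at 0.15 and 0.60 mg/m3. Cxcl9 and Cxcr3 were called higher at 0.04 and 0.60 mg/m3 and not at 0.15 mg/m3. At 0.08 mg/m3 Cxcl9 was called and Cxcr3 was not. The Cxcl9 calls at 0.04 and 0.08 mg/m3 were close to the threshold. After 1 week none of the 4 genes was called higher at any concentration in the fit of all groups. Of all genes 15.1%, 25.1%, 33.8% and 32.8% were called higher there, from the lowest concentration up. In a fit of the 1-week arrays alone, Cxcl11 was called higher at 0.15 and 0.60 mg/m3 and Cxcl10 at 0.60 mg/m3. For both genes all 1-week arrays at 0.15 and 0.60 mg/m3 lay above all 1-week controls.

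The 1-week arrays need a remark before the values. On the first principal component of all genes the 1-week controls lay between -75.2 and -43.6 and the 1-week 0.04 mg/m3 arrays between -84.9 and -62.8, apart from the 1-week 0.60 mg/m3 arrays at -2.51 to 5.59 and from every 4-week array at 9.53 to 40.9. Between the 4-week and the 1-week controls 73.5% of all genes were called, so a 1-week change is read against controls that stand apart from those of 4 weeks. Alveolar type 2 cell markers averaged between 11 and 11.7 and club cell markers between 11.4 and 12.2 on single arrays, both near the top of the measured range of 2.22 to 13.8.

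The 3 ligand genes lie side by side on the plus strand of rat chromosome 14 (assembly GRCr8, RefSeq). Cxcl11 spans 15973728 to 15976503, Cxcl10 spans 15989066 to 15991263 and Cxcl9 spans 16007166 to 16012077. The start of Cxcl10 lies 15338 bases past that of Cxcl11, and the start of Cxcl9 another 18100 bases further on. Cxcl11 and Cxcl10 lie within the annotated span of Art3 (15921540 to 16003764), which encodes an ADP-ribosyltransferase family member, and Cxcl9 lies between Art3 and Sdad1. Cxcr3 is on the minus strand of chromosome X, from 70884293 to 70886944. The 250 bases before each RefSeq gene start are printed for the 3 ligands, which share a locus and an inducer. Letters are 5′ to 3′ on the gene's own strand, and capitals mark matches to the motifs described after them.
Cxcl10: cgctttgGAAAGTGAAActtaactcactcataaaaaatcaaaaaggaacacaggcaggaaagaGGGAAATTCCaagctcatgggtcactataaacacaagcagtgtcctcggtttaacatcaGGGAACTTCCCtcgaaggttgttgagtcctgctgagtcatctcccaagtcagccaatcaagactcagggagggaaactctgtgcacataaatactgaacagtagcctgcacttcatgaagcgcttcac
Cxcl11: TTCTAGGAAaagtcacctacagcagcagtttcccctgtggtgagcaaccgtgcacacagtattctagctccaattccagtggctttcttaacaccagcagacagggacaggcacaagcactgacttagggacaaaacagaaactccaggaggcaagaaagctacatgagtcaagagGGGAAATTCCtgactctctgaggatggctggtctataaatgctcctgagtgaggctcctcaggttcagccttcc
Cxcl9: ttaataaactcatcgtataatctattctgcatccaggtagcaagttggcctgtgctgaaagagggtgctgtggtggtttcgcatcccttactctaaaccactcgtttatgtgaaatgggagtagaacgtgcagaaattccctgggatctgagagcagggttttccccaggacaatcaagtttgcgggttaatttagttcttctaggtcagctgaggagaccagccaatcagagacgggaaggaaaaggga

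Both strands of these windows were searched for GAAANNGAAA, the core letters of an interferon-stimulated response element, for TTCNNNGAA, the letters of a gamma-activated site, and for GGGANNTTCC, the letters of a kappa B site. The Cxcl10 window held GAAAGTGAAA at 243 to 234 bases before the start, and kappa B letters at 187 to 178 bases and, in 2 overlapping matches on opposite strands, at 128 to 118 bases. The Cxcl11 window held TTCTAGGAA at 250 to 242 bases and GGGAAATTCC at 74 to 65 bases. The Cxcl9 and Cxcr3 windows held none of the 3. Of 27457 RefSeq promoter windows of the same length, 3.29% held the first motif, 7.52% the second and 1.07% the third. A match describes letters in a window, and says nothing about binding. The lack of an exact match in 250 bases says nothing about binding either. Any part of these letters in the courses of the genes was not tested.

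Cxcl10, also called IP-10, is the ligand named for its induction by interferon gamma. At 4 weeks its 5 controls lay at 4.32, 3.88, 4.09, 3.99 and 4.00, and the arrays at 0.04 mg/m3 lay at 4.18, 4.25, 4.31, 4.06 and 4.14. The arrays at 0.08 mg/m3 lay at 3.93, 4.34, 4.15, 4.29 and 4.25. These 3 groups overlapped throughout. The values were 5.20, 6.72, 6.69, 4.36 and 5.20 at 0.15 mg/m3, and at 0.60 mg/m3 they were 7.07, 7.07, 6.80, 5.67 and 7.42. All 5 arrays of each of these groups lay above all 5 controls, but replicate 4 at 0.15 mg/m3 exceeded the highest control only slightly, and replicates 2 and 3 at 0.15 mg/m3 reached the range of the 0.60 mg/m3 group. The change was 0.13 at 0.04 mg/m3 and 0.14 at 0.08 mg/m3, neither of them called, with 95% intervals of -0.45 to 0.71 and -0.45 to 0.72. It was 1.58 ± 0.29 at 0.15 mg/m3, a 2.98-fold difference (adjusted p = 3.04e-04), and 2.75 ± 0.29 at 0.60 mg/m3, a 6.72-fold difference (adjusted p = 6.33e-10). The change at 0.60 mg/m3 ranked 11 from the highest of 13438 genes. The control means of Cxcl10 and Cxcl11, 4.06 and 4.07, lay below the 25th percentile of gene means (4.61), and whether their probe sets were above background in controls was not tested.

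Cxcl11, also called I-TAC, binds CXCR3 with the highest affinity of the 3 in studies of the human proteins. At 4 weeks the controls lay at 3.93, 4.05, 4.41, 4.12 and 3.82, the 0.04 mg/m3 arrays at 3.98, 4.25, 3.95, 3.54 and 4.14, and the 0.08 mg/m3 arrays at 4.10, 4.01, 4.06, 4.20 and 4.10. The values were 4.83, 6.72, 6.41, 4.29 and 5.53 at 0.15 mg/m3, and at 0.60 mg/m3 they were 6.77, 7.00, 6.44, 4.81 and 7.49. The 0.60 mg/m3 arrays all lay above the controls, while at 0.15 mg/m3 replicate 4 fell inside the control range and the other 4 lay above it. The change was -0.10 at 0.04 mg/m3 and 0.03 at 0.08 mg/m3, neither of them called, with 95% intervals of -0.71 to 0.52 and -0.59 to 0.64. It was 1.49 ± 0.31 at 0.15 mg/m3 (2.81-fold, adjusted p = 0.00141) and 2.43 ± 0.31 at 0.60 mg/m3 (5.41-fold, adjusted p = 4.89e-08). The Cxcl11 SDs were 1.03 and 1.02 in these exposed groups and 0.22 in controls, and those of Cxcl10 were 1.04, 0.67 and 0.16. The standard errors and p-values of both genes rest on a spread shared by all 10 groups, which understates that of these exposed groups.

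The step for both genes lay between 0.08 and 0.15 mg/m3. The 0.15 minus 0.08 mg/m3 difference was 1.44 ± 0.29 for Cxcl10 (adjusted p = 5.44e-04) and 1.46 ± 0.31 for Cxcl11 (adjusted p = 8.41e-04), where 8.05% of all genes were called higher. From 0.15 to 0.60 mg/m3 Cxcl10 gained a further 1.17 ± 0.29 (adjusted p = 0.0127), in a contrast in which 1.91% of genes were called higher. For Cxcl11 that difference of 0.95 ± 0.31 was not called (adjusted p = 0.0885). The call for Cxcl10 was lost on leaving out replicate 5 at 0.60 mg/m3 or replicate 1, 4 or 5 at 0.15 mg/m3, with values of 0.85 to 1.46 over all omissions. That of Cxcl11 was gained without replicate 4 at 0.60 mg/m3 (1.37) or replicate 2 or 3 at 0.15 mg/m3. Ordered by mean over all 10 groups, both genes had 0.60 mg/m3 at 4 weeks first and 0.15 mg/m3 at 4 weeks second. In neither order did any pair of neighbours have separate ranges, except Cxcl11 between its second and its next group, 0.15 and 0.08 mg/m3 at 4 weeks.

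**Figure D1:**
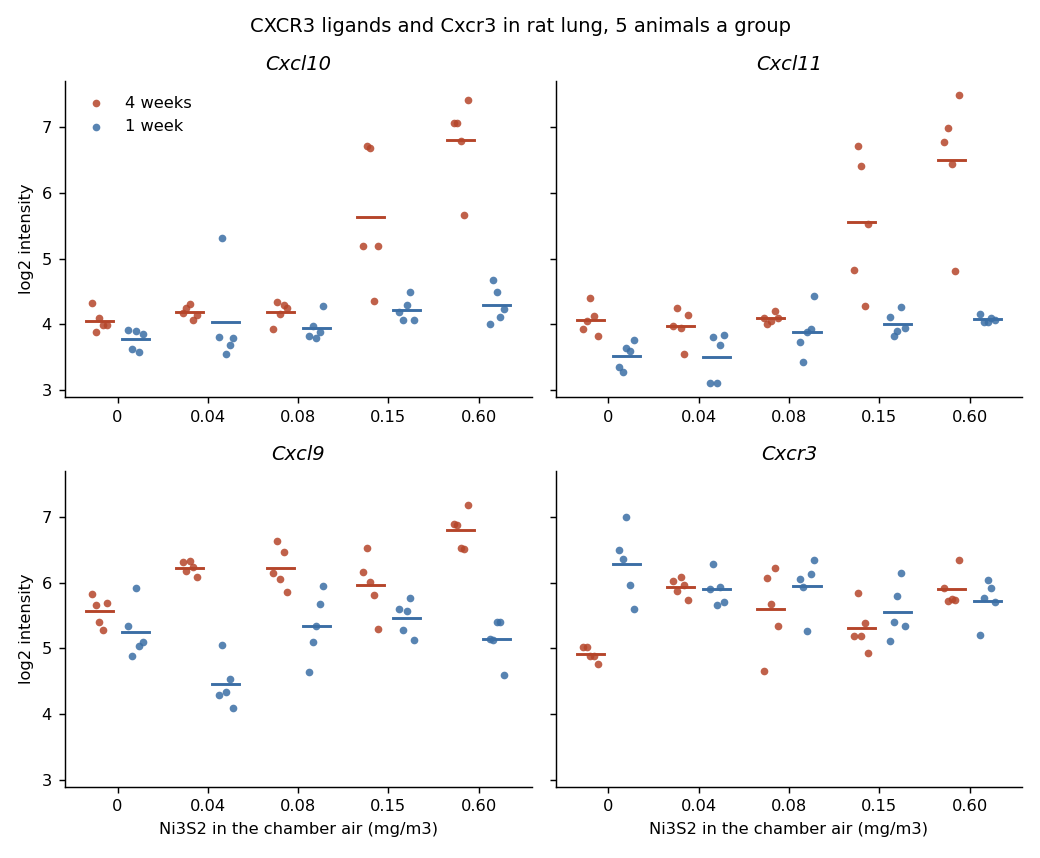
Log2 intensity (y axis) of the 4 genes on each of 50 arrays against the Ni3S2 concentration (x axis, categories). Points are single rats, 4-week arrays in red left of 1-week arrays in blue, and short lines are group means; Cxcl10 and Cxcl11 stand out at 0.15 and 0.60 mg/m3 after 4 weeks, while Cxcr3 has its lowest group mean in the 4-week controls.

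Cxcl9, also called MIG, is the ligand that depends most on interferon gamma. At 4 weeks its controls lay at 5.83, 5.66, 5.40, 5.29 and 5.70, and the 0.04 mg/m3 arrays at 6.31, 6.18, 6.33, 6.24 and 6.08. The values were 6.14, 6.63, 6.06, 6.46 and 5.85 at 0.08 mg/m3, 6.16, 6.52, 6.01, 5.82 and 5.29 at 0.15 mg/m3, and 6.89, 6.88, 6.52, 6.51 and 7.19 at 0.60 mg/m3. All exposed arrays lay above all controls at 0.04, 0.08 and 0.60 mg/m3, and 3 of 5 did at 0.15 mg/m3. The change was 0.65 ± 0.21 at 0.04 mg/m3 (1.57-fold, adjusted p = 0.0313), 0.65 ± 0.21 at 0.08 mg/m3 (adjusted p = 0.0391) and 1.22 ± 0.21 at 0.60 mg/m3 (2.33-fold, adjusted p = 1.93e-05). It was 0.39 ± 0.21 at 0.15 mg/m3 and was not called (adjusted p = 0.417), and the only neighbouring concentrations called apart were 0.60 minus 0.15 mg/m3 (0.84 ± 0.21, adjusted p = 0.0136).

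The calls for Cxcl9 at 0.04 and 0.08 mg/m3 were close to the threshold. At 0.04 mg/m3 the call was lost on leaving out replicate 2, 3 or 4 of the 4-week controls or replicate 1, 3 or 4 of the exposed group, with adjusted p up to 0.0831 and changes of 0.58 to 0.72 over all omissions. At 0.08 mg/m3 it was lost without replicate 2, 3, 4 or 5 of the controls or replicate 2 or 4 of the exposed group, with adjusted p up to 0.124 and changes of 0.56 to 0.75. The difference between 0.60 and 0.15 mg/m3 lost its call without replicate 5 at 0.60 mg/m3 or without replicate 5 at 0.15 mg/m3 (0.67). The call at 0.60 mg/m3 stayed under each omission, with changes of 1.12 to 1.29.

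Cxcr3, the receptor, is read here as a gene of the lymphocytes that respond to the ligands. Its 4-week controls lay at 5.02, 5.02, 4.89, 4.89 and 4.76, below all arrays at 0.04 mg/m3 (6.03, 5.87, 6.09, 5.96 and 5.73) and all arrays at 0.60 mg/m3 (5.92, 5.73, 5.75, 5.74 and 6.35). At 0.08 mg/m3 the values were 4.65, 6.07, 5.68, 6.23 and 5.34, with replicate 1 below every control and the other 4 above. They were 5.19, 5.85, 5.19, 5.39 and 4.93 at 0.15 mg/m3, with 4 of 5 above the controls. The group means were 5.93 at the lowest and 5.90 at the highest concentration. The change was 1.02 ± 0.23 at 0.04 mg/m3 (2.03-fold, adjusted p = 0.00202). It was 0.68 ± 0.23 at 0.08 mg/m3 (adjusted p = 0.0527) and 0.39 ± 0.23 at 0.15 mg/m3 (adjusted p = 0.465), neither of them called, and 0.98 ± 0.23 at 0.60 mg/m3 (1.98-fold, adjusted p = 0.00133). Without replicate 1 the change at 0.08 mg/m3 was 0.91 and called (adjusted p = 0.00467), and it was also called without replicate 5 of that group (adjusted p = 0.039).

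Counted together at 4 weeks, the genes called higher were Cxcl9 and Cxcr3 at 0.04 mg/m3, where 8.29% of all genes were, and Cxcl9 at 0.08 mg/m3 (5.67% of all genes). The 2 genes called higher at 0.15 mg/m3 were Cxcl10 and Cxcl11, against 1.92% of all genes, and at 0.60 mg/m3 all 4 genes were, against 9.47%. The median change of the 4 genes was 0.39, 0.40, 0.94 and 1.83 in rising order of concentration, against medians of all genes within 0.02 of 0.

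**Figure D2:**
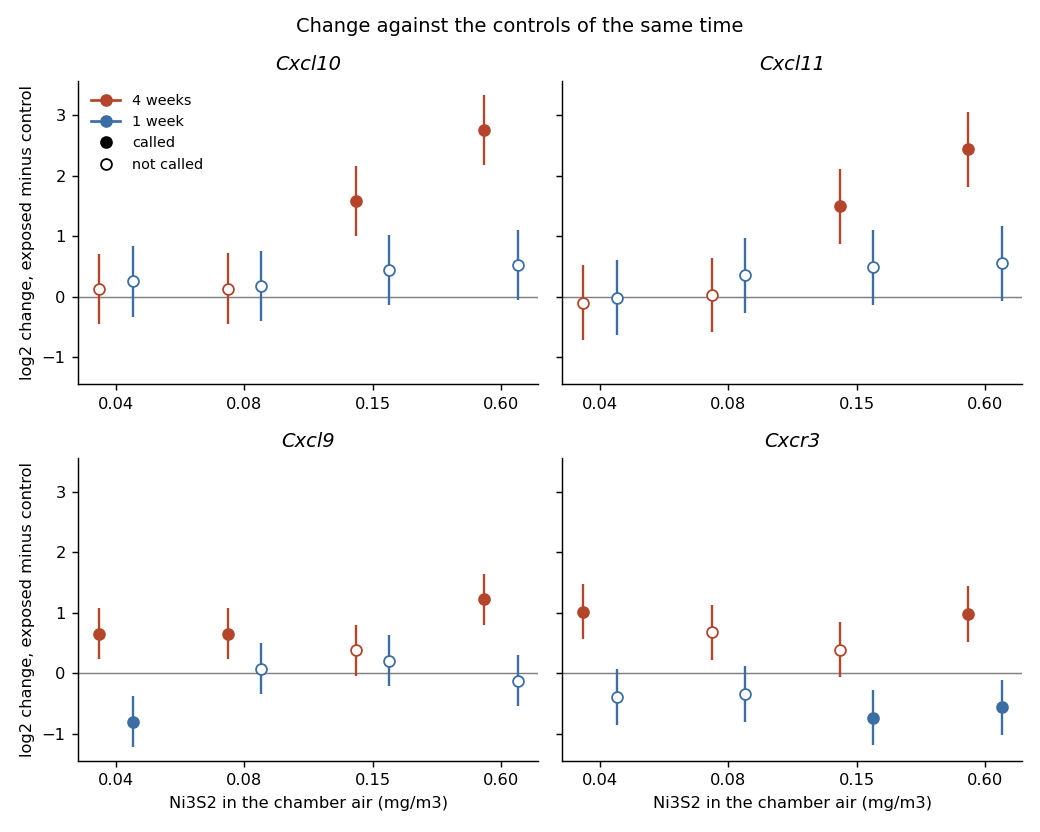
Change against controls of the same time (y axis, log2) for each concentration (x axis, categories), with bars for the 95% interval of the limma fit. Red points are 4 weeks and blue points 1 week, filled where called; at 4 weeks Cxcl10 and Cxcl11 leave 0 at 0.15 mg/m3 and Cxcl9 and Cxcr3 at 0.04 mg/m3.

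At 1 week Cxcl10 lay at 3.91, 3.63, 3.91, 3.58 and 3.86 in controls, at 3.81, 5.31, 3.55, 3.68 and 3.79 at 0.04 mg/m3 and at 3.83, 3.97, 3.80, 3.88 and 4.28 at 0.08 mg/m3. It lay at 4.19, 4.07, 4.29, 4.49 and 4.06 at 0.15 mg/m3 and at 4.00, 4.68, 4.49, 4.11 and 4.23 at 0.60 mg/m3. Every array at 0.15 and 0.60 mg/m3 lay above every control, yet the changes of 0.44 ± 0.29 and 0.53 ± 0.29 were not called (adjusted p = 0.174 and 0.107). Cxcl11 gave the same picture, with 3.35, 3.28, 3.64, 3.60 and 3.76 in controls, 4.11, 3.83, 3.90, 4.26 and 3.94 at 0.15 mg/m3 and 4.16, 4.04, 4.04, 4.09 and 4.06 at 0.60 mg/m3. Its changes were 0.48 ± 0.31 and 0.55 ± 0.31 (adjusted p = 0.161 and 0.111). The standard error of this fit is shared by all 10 groups, and the 4-week arrays at 0.15 and 0.60 mg/m3, with SDs of 0.67 to 1.04 for these genes, enter it. In a fit of the 25 1-week arrays alone, the Cxcl11 changes were called at both concentrations (adjusted p = 0.00879 and 0.00342) and the Cxcl10 change at 0.60 mg/m3 (adjusted p = 0.0382).

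Cxcl9 at 1 week was lower at 0.04 mg/m3, with 4.29, 5.05, 4.34, 4.54 and 4.10 against 5.34, 4.89, 5.92, 5.04 and 5.09 in controls. The change was -0.79 ± 0.21 (adjusted p = 0.00582), in a contrast in which 11.8% of all genes were called lower. The second Cxcl9 probe set gave -0.46, which was not called (adjusted p = 0.0841). Of B cell markers 6 of 6 and of lymph node markers 3 of 7 were lower in the same contrast, and their part was not tested. Its levels at the other concentrations overlapped the controls, with changes of 0.08, 0.21 and -0.12 in rising order. By group mean Cxcl9 was lowest in this 0.04 mg/m3 group (4.46) and highest at 0.60 mg/m3 for 4 weeks (6.80), and all neighbours in its order overlapped. Cxcr3 was highest of all 10 groups, by mean, in the 1-week controls, at 6.50, 6.37, 7.01, 5.96 and 5.60, and here too all neighbours in the order overlapped. Its changes at 0.04 and 0.08 mg/m3 were -0.39 and -0.34, neither of them called (adjusted p = 0.189 and 0.226). It lay at 5.12, 5.40, 5.79, 6.15 and 5.34 at 0.15 mg/m3 (-0.73 ± 0.23, adjusted p = 0.00445) and at 5.20, 5.76, 6.04, 5.92 and 5.71 at 0.60 mg/m3 (-0.56 ± 0.23, adjusted p = 0.028). Both were called lower, beside 33.7% and 32.3% of all genes called lower in these contrasts. T cell markers were lower in 8 and 7 of 18 and B cell markers in 4 of 6 at each of these concentrations, with 0 higher, and their part was not tested. The call at 0.60 mg/m3 was lost without replicate 1 or 3 of the controls or replicate 1 of the exposed group, with changes of -0.73 to -0.38 over all omissions. Set against the 4-week controls in place of their own, the 1-week Cxcr3 changes turned to 0.64 and 0.81.

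In the controls themselves Cxcr3 was lower at 4 weeks than at 1 week by 1.37 on the log2 scale (-1.37 ± 0.23, adjusted p = 6.63e-07), and 38.2% of genes were lower in that contrast. None of the 3 ligands was called between the control groups (changes of 0.28 to 0.54, adjusted p of 0.108 or more), though all 5 Cxcl11 controls were higher at 4 weeks (3.82 to 4.41) than at 1 week (3.28 to 3.76). In a fit of these 10 arrays Cxcl10 and Cxcl11 were called, as were Cxcl11 with quantile normalization (0.67) and the second probe set of Cxcl9 (0.45). The estimates came with 95% intervals of -0.10 to 0.74 for Cxcl9, -0.30 to 0.86 for Cxcl10 and -0.07 to 1.16 for Cxcl11. For 0.60 mg/m3 the 4-week minus 1-week difference was 2.50 ± 0.29 for Cxcl10 (adjusted p = 3.37e-09), 2.42 ± 0.31 for Cxcl11 (adjusted p = 1.99e-08) and 1.66 ± 0.21 for Cxcl9 (adjusted p = 1.80e-08), beside 16.5% of genes higher. For Cxcr3 it was 0.17 ± 0.23 (adjusted p = 0.541). Time, and anything else that set the 2 sets of arrays apart, cannot be told apart here.

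The test of the 4-week change against the 1-week change removes what the controls of each time share with their exposed groups. At 0.04 mg/m3 the 4-week change was the higher for Cxcl9 (by 1.45, from changes of 0.65 at 4 weeks and -0.79 at 1 week) and Cxcr3 (by 1.40), with 7.22% of genes called in that direction, and at 0.08 mg/m3 only Cxcr3 was called (1.02, with 21.4% of genes higher). The differences at 0.15 mg/m3 were called for Cxcl10 (1.13), Cxcl11 (1.01) and Cxcr3 (1.12), with 27.4% of genes called higher. The call of Cxcl10 was lost without replicate 2 or 3 of the 4-week group (0.86 and 0.87), and that of Cxcl11 under 13 of 20 omissions of 1 array, among them the same replicates (0.71 and 0.79). In the 0.60 mg/m3 groups all 4 genes had the higher change at 4 weeks, by 2.22 ± 0.41 for Cxcl10 (adjusted p = 1.09e-05), 1.88 ± 0.43 for Cxcl11 (adjusted p = 2.49e-04), 1.34 ± 0.29 for Cxcl9 (adjusted p = 1.40e-04) and 1.54 ± 0.32 for Cxcr3 (adjusted p = 6.85e-05), where 27.7% of all genes were called in that direction. Both terms enter this difference for Cxcr3, whose 1-week changes were below 0 at each concentration and called lower at 0.15 and 0.60 mg/m3, as for Cxcl9 at 0.04 mg/m3.

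The ligands were set against each other within arrays, by the difference between 2 genes on the same array, tested with an exact two-sided permutation test of 5 exposed against 5 control arrays. The smallest p this test can give is 0.00794, and p-values were adjusted over the 32 tests made (4 pairs, 4 concentrations, 2 times). After 4 weeks at 0.04 mg/m3 the change of Cxcl10 minus that of Cxcl9 was -0.52 (exact p = 0.00794, adjusted p = 0.0318). It was -0.52 at 0.08 mg/m3 and 1.19 at 0.15 mg/m3, and neither passed after adjustment (adjusted p = 0.0635 for each). At 0.60 mg/m3 the order was reversed, with Cxcl10 1.53 ahead of Cxcl9 at changes of 2.75 and 1.22 (exact p = 0.00794, adjusted p = 0.0318). Cxcl10 and Cxcl11 were not told apart at any concentration and time, with a difference of 0.31 at 0.60 mg/m3 for 4 weeks (exact p = 0.175, adjusted p = 0.266). For Cxcl10 minus Cxcr3 the differences at 4 weeks were -0.89, -0.54, 1.18 and 1.77 in rising order of concentration, of which the first and the last passed (adjusted p = 0.0318 for each). Cxcl9 and Cxcr3 differed by -0.37 at 0.04 mg/m3 for 4 weeks (exact p = 0.00794, adjusted p = 0.0318), by -0.02 and -0.01 at 0.08 and 0.15 mg/m3, and by 0.24 at 0.60 mg/m3 (adjusted p = 0.183). At 1 week 3 differences passed (exact p = 0.00794, adjusted p = 0.0318 for each). They were Cxcl10 minus Cxcl9 at 0.04 mg/m3 (1.05, opposite in sign to that at 4 weeks) and, at 0.15 mg/m3, Cxcl10 minus Cxcr3 (1.17) and Cxcl9 minus Cxcr3 (0.94).

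Single rats gave the same order for Cxcl10 and Cxcl11. After 4 weeks at 0.15 mg/m3 replicates 2 and 3 were the highest for both and replicate 4 the lowest. At 0.60 mg/m3 replicate 5 was the highest for both and replicate 4 the lowest, at 5.67 for Cxcl10 and 4.81 for Cxcl11 against 6.44 or more in the other 4 rats for either gene. Cxcl9 separated these rats less, though replicate 5 at 0.60 mg/m3 (7.19) and replicate 2 at 0.15 mg/m3 (6.52) were again highest. Replicate 4 at 0.60 mg/m3 had 6.51, again the lowest but close to replicate 3 at 6.52. At 0.15 mg/m3 replicate 3, among the highest for Cxcl10, had 6.01, below replicates 1 and 2. With group means subtracted, the Pearson correlation over 50 arrays was 0.513 for Cxcl9 with Cxcl10 and 0.792 for Cxcl10 with Cxcl11.

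**Figure D3:**
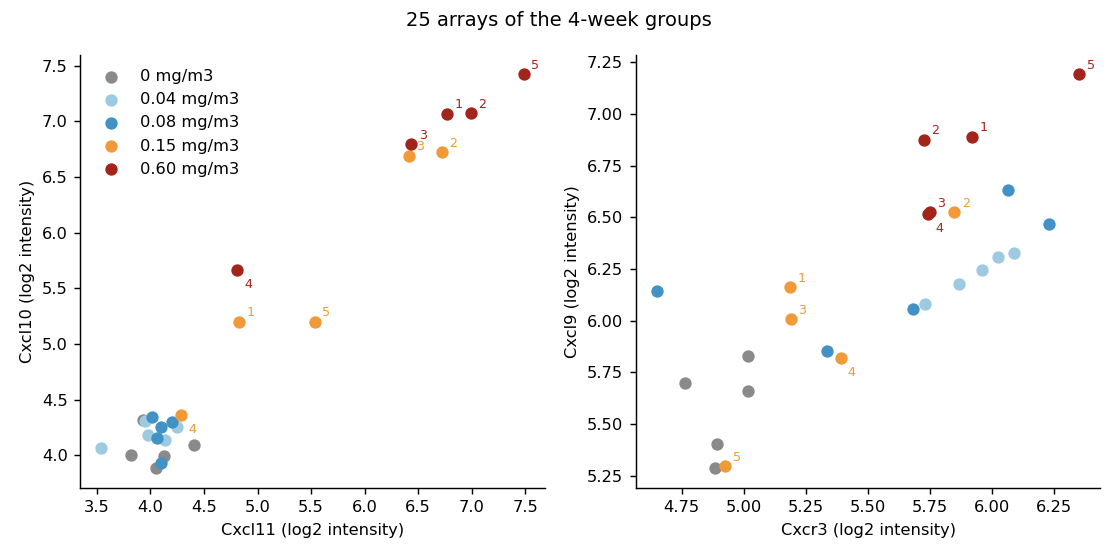
The 25 arrays of the 4-week groups, Cxcl10 against Cxcl11 (left) and Cxcl9 against Cxcr3 (right), both axes in log2 intensity. Points are rats coloured by concentration, with replicate numbers at 0.15 and 0.60 mg/m3; on the left controls, 0.04 and 0.08 mg/m3 form 1 group, on the right the 0.04 mg/m3 rats lie above and to the right of all controls.

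The genes next to the ligands on chromosome 14 were followed at 0.15 and 0.60 mg/m3. After 4 weeks at 0.60 mg/m3 Art3, whose span holds Cxcl10 and Cxcl11, had a change of -0.07 (adjusted p = 0.891) and Nup54, a nuclear pore gene beyond it, 0.09 (adjusted p = 0.699). On the other side of Cxcl9, Sdad1 was higher by 0.54 (adjusted p = 0.00228) and Naaa, which encodes an enzyme that degrades fatty acid amides, was lower (-0.50, adjusted p = 0.0202). At 0.15 mg/m3 none of these 4 neighbours was called after 4 weeks, with changes of -0.03 to 0.38. After 1 week Nup54 (0.61 and 0.67), Art3 (1.09 and 1.04) and Sdad1 (0.97 and 1.17) were called higher at 0.15 and 0.60 mg/m3, where 33.8% and 32.8% of all genes were, and Naaa was not called.

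The interferon side was followed through lists. Ifng, the gene of interferon gamma, lay between 2.57 and 3.05 on all 50 arrays, near the lower end of the measured range, and was not called in any group after 4 weeks (changes of -0.14 to -0.02); whether its probe set was above background was not tested. Irf1, a transcription factor that interferon gamma induces, had a change of 0.27 ± 0.12 at 0.60 mg/m3 for 4 weeks (adjusted p = 0.112). Among genes for interferons, their receptors and signal carriers, 8 of 20 measured were higher at 0.60 mg/m3 for 4 weeks and 0 were lower, beside 9.47% and 7.9% of all genes. They included Stat2 (0.68 ± 0.09, adjusted p = 4.37e-07) and Irf9 (0.68 ± 0.11, adjusted p = 3.29e-06), which encode parts of the complex that binds the interferon-stimulated response element, and Il18r1 (0.72 ± 0.14) and Ebi3 (0.71 ± 0.14), a receptor chain for interleukin 18 and a subunit of interleukin 27.

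Genes known to respond to type I interferon were higher mainly at 0.60 mg/m3. At 4 weeks 24 of 30 measured were higher and 0 lower at 0.60 mg/m3, with a median change of 0.88 (all genes -0.01), against 0 at 0.04 and 0.08 mg/m3 and 2 at 0.15 mg/m3 (median 0.30). Of all genes 9.47% were higher and 7.9% lower at 0.60 mg/m3. At 0.04, 0.08 and 0.15 mg/m3 8.29%, 5.67% and 1.92% of all genes were higher. At 0.60 mg/m3 the largest changes were in the antiviral genes Ifit3 (2.27 ± 0.32, adjusted p = 5.36e-07) and Mx1 (2.24 ± 0.27, adjusted p = 1.28e-08), in Usp18 (2.10 ± 0.21, adjusted p = 1.55e-10), a brake on the type I receptor, and in Irf7 (2.04 ± 0.22, adjusted p = 7.78e-10), a factor that amplifies type I interferon. The 2 called at 0.15 mg/m3 were Mx1 (0.95, adjusted p = 0.0296) and Usp18 (0.71, adjusted p = 0.0445), a count that ran from 0 to 7 when single arrays were left out and was 7 without replicate 4 of the exposed group and 0 without replicate 2 or 3 of it or replicate 3, 4 or 5 of the controls. The mean of the list per array was 7.47, 7.82, 7.99, 7.18 and 7.61 at 0.15 mg/m3, so the rats highest for Cxcl10 and Cxcl11 (replicates 2 and 3) were highest here and replicate 4 was lowest. At 0.60 mg/m3 it was 8.24, 8.40, 8.10, 7.89 and 8.64, again with replicate 5 highest and replicate 4 lowest, against 7.39, 7.32, 7.26, 7.22 and 7.18 in controls. At 1 week 13 and 12 of the 30 genes were higher and 5 lower at 0.15 and 0.60 mg/m3, where 33.8% and 32.8% of all genes were higher and 33.7% and 32.3% lower.

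Genes known to respond to interferon gamma were counted in the same way. Of 23 measured, 10 were higher and 0 lower at 0.60 mg/m3 for 4 weeks, with a median of 0.34, beside 9.47% and 7.9% of all genes. At 0.04, 0.08 and 0.15 mg/m3 6, 1 and 0 were higher, beside 8.29%, 5.67% and 1.92% of all genes. The count at 0.60 mg/m3 was 6 without replicate 5 of the exposed group or replicate 5 of the controls, and the count at 0.08 mg/m3 ran from 0 to 5, with 5 without replicate 1 of the exposed group. The largest at 0.60 mg/m3 were Gbp4 (0.81 ± 0.16, adjusted p = 1.32e-04), a guanylate-binding protein, Tapbp (0.61 ± 0.13) and Psmb8 (0.54 ± 0.11) of antigen processing, and Irgm (0.57 ± 0.13), an immunity-related GTPase. Psmb8 was also called at 0.04 mg/m3 (0.34, adjusted p = 0.0284). The type I genes that were largest at 0.60 mg/m3 were not called there, with changes of -0.17 to 0.50, the highest of them above that of Psmb8. The lists were not tested against each other. After 4 weeks at 0.60 mg/m3 the mean of this list also had replicate 5 highest (8.58) and replicate 4 lowest (8.21). At 0.15 mg/m3 replicates 2 and 3 were highest (8.14 and 8.18) and replicate 5 lowest (7.97). T cell markers, described below, had replicate 5 highest (6.62) and replicate 4 lowest (6.01) at 0.60 mg/m3. At 0.15 mg/m3 their highest was replicate 4 (6.20) and their lowest replicate 3 (5.67).

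**Figure D4:**
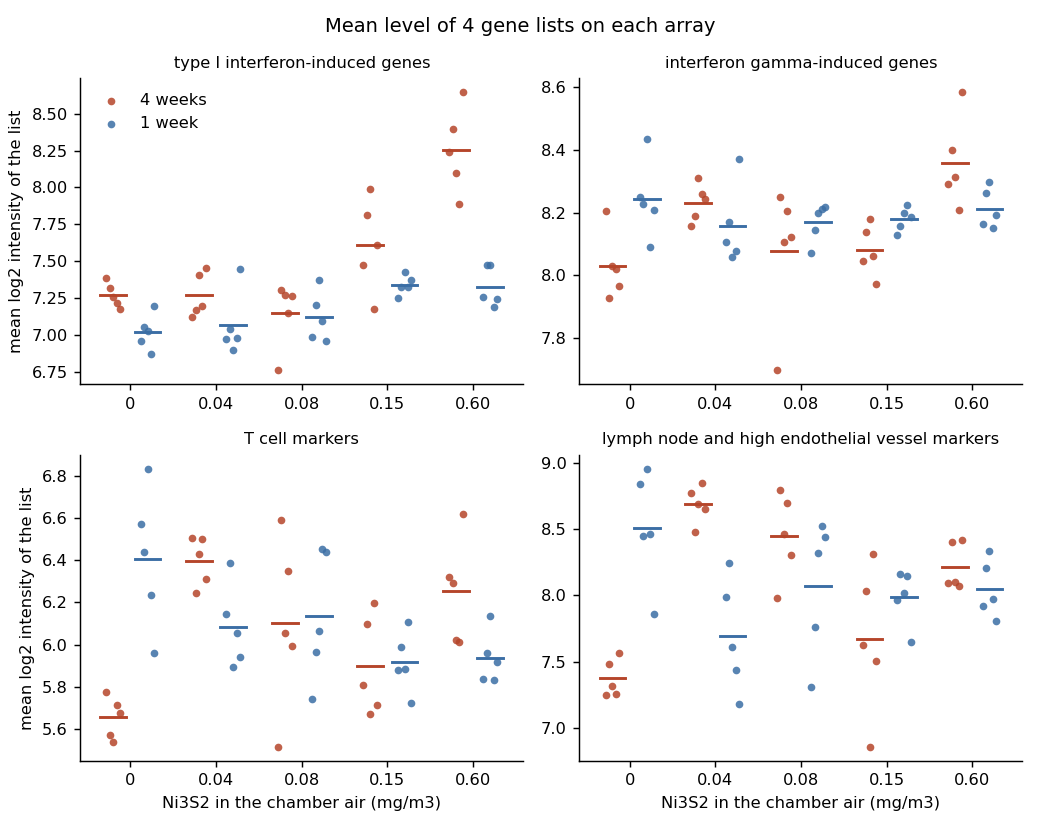
Mean log2 intensity of 4 gene lists on each of 50 arrays (y axis) against the Ni3S2 concentration (x axis, categories), 4-week arrays in red left of 1-week arrays in blue, lines at group means. After 4 weeks the type I interferon list is highest at 0.60 mg/m3, while T cell and lymph node markers are above controls at 0.04 mg/m3 and overlap them at 0.15 mg/m3.

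Lymphocyte and lymph node markers moved with Cxcl9 and Cxcr3 at the low concentrations. At 0.04 mg/m3 for 4 weeks 14 of 18 T cell markers were higher and 0 lower, among them Cd5 (1.33 ± 0.24, adjusted p = 2.41e-04) and Cd3e (1.25 ± 0.26, adjusted p = 9.23e-04), parts of the T cell surface, as were 5 of 6 B cell markers and 5 of 7 markers of lymph node and its high endothelial vessels. Of all genes 8.29% were higher at that exposure. Some genes stand in more than 1 list, among them Cr2, in the B cell and lymph node lists, so the counts overlap in part. The mean of the T cell markers per array ran from 6.25 to 6.50 at 0.04 mg/m3, against 5.54 to 5.78 in controls, and that of the lymph node markers from 8.48 to 8.84, against 7.25 to 7.57, so neither list overlapped between these groups. Heart muscle markers, which in rats can come from the wall of lung veins as well as from heart tissue, were also higher at 0.04 mg/m3 (7 of 8, mean per array 9.20 to 9.94, against 6.98 to 8.12 in controls), and skeletal muscle markers reached 8.14 on 1 array, against at most 4.23 in controls. At 0.60 mg/m3 10 of 18 T cell markers, 1 of 6 B cell markers, 4 of 7 lymph node markers and 0 of 8 heart markers were higher. Of the cells that can make the ligands, macrophages had 5 of 10 markers higher there and dendritic cells 3 of 6, with 0 lower, while endothelium had 4 of 10 markers lower and club cells 4 of 6, with 0 higher. In the other epithelium, alveolar type 2 cells had 5 of 9 markers higher and 2 lower. Their higher count fell to between 1 and 3 on leaving out any single array of either group. Alveolar type 1 and ciliated cells had 0 markers higher and 0 lower. Neutrophil markers were higher in 4 of 7 and plasma cell markers in 4 of 6, where 9.47% of all genes were higher and 7.9% lower. The endothelial count was 2 without replicate 1 or 2 of the exposed group or replicate 1, 4 or 5 of the controls. The part of these markers in the ligand results at 0.60 mg/m3 was not tested. The T cell count there was 6 without replicate 5 of the exposed group. The lymph node count was 2 without replicate 2 or 5 of the exposed group or replicate 4 of the controls, and the B cell count 0 without either of those exposed replicates or replicate 1 or 4 of the controls. The part of these markers in the Cxcl9 and Cxcr3 results was not tested.

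At 0.08 mg/m3 T cell markers and Cxcr3 were both lowest in the same rat. Replicate 1, with the lowest Cxcr3 at 4.65, also had the lowest mean of T cell markers, 5.52, against 6.00 to 6.59 in the other 4 rats of the group and 5.54 to 5.78 in controls. With all arrays 5 of 18 T cell markers were higher, a count that was 10 without this replicate and 0 without replicate 2. Lymph node markers were higher in 5 of 7 (mean per array 7.98 to 8.79, against 7.25 to 7.57 in controls), B cell markers in 5 of 6, macrophage markers in 4 of 10 and heart muscle markers in 3 of 8 (8.43 to 9.47, against 6.98 to 8.12), where 5.67% of all genes were higher. All 5 rats lay above all controls for the lymph node and heart lists, and skeletal muscle markers reached 11.5 on 1 array. Without 1 array the B cell count was as low as 1 (without replicate 2 or 4; 2 or 3 without replicate 2, 3 or 4 of the controls), the macrophage count 2 (without replicate 4 of the controls) and the heart count 1 (without replicate 2 or 3, or replicate 3 of the controls). In the 0.15 mg/m3 group 2 of 18 T cell markers and 0 of 7 lymph node markers were higher, beside 1.92% of all genes. The T cell mean there ran from 5.67 to 6.20. The 1-week controls, in which Cxcr3 was highest, had T cell means of 5.96 to 6.83 and lymph node means of 7.86 to 8.95, above the 4-week controls in every array. Markers of natural killer and cytotoxic cells, the other cells that carry the receptor, were counted too. At 0.08 mg/m3 for 4 weeks 2 of 13 were higher and 6 lower (2.87% of all genes were lower). At 0.60 mg/m3 for 4 weeks 3 of 13 were higher and 8 lower (7.9% of all genes were lower). The cytotoxic granule genes Gzmb (-1.05 ± 0.24, adjusted p = 9.95e-04), Gzma (-0.99 ± 0.25) and Gzmk (-0.81 ± 0.22) were lower and Cst7, which encodes cystatin F, an inhibitor of granule proteases, was higher (0.85 ± 0.17, adjusted p = 3.20e-04). The lower count at 0.60 mg/m3 was 5 without replicate 1 of either group, and that at 0.08 mg/m3 was as low as 2 (without replicate 1 or 4 of the exposed group or replicate 1 of the controls; 3 without replicate 4 of the controls), and the higher count there was 0 without replicate 2 or 4 of the exposed group or replicate 2 of the controls and 1 without replicate 3 of the exposed group or replicate 3, 4 or 5 of the controls.

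Other attractants of lymphocytes showed both courses. Of 22 measured genes for other lymphocyte-attracting chemokines and their receptors, 6 were higher and 1 lower at 0.60 mg/m3 for 4 weeks, beside 9.47% and 7.9% of all genes. At 0.04, 0.08 and 0.15 mg/m3 8, 6 and 2 were higher, beside 8.29%, 5.67% and 1.92% of all genes. Cxcl13, which draws B cells through CXCR5, and Ccl19, which draws CCR7-bearing cells to lymph nodes, were higher at 0.60 mg/m3 (1.73 ± 0.31 and 1.62 ± 0.34) and at 0.04 mg/m3 (1.71 and 2.51), and were not called at 0.15 mg/m3 (adjusted p = 0.103 and 0.303). Both Cxcl13 and Ccl19 were also counted among the lymph node markers above. The CCR4 ligand genes Ccl17 and Ccl22 were called at 0.15 mg/m3 (1.38 and 0.61) as well as at 0.60 mg/m3 (1.84 ± 0.24 and 0.92 ± 0.15). Of 7 neutrophil-attracting CXC genes and receptors 3 were higher and 1, the receptor gene Cxcr1 (-1.39 ± 0.24), was lower at 0.60 mg/m3. Cxcl1 was higher at 0.15 and 0.60 mg/m3 (1.24 and 1.62 ± 0.14) and not at 0.08 mg/m3 (0.23, adjusted p = 0.341), and Cxcl2 likewise (0.99 and 1.54 ± 0.21). Pf4, whose human product is another ligand of CXCR3, had a change of 0.02 at 0.60 mg/m3 for 4 weeks (adjusted p = 0.935).

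Genes known to remove or trim the ligands were counted too. After 4 weeks at 0.60 mg/m3 Dpp4, the protease that clips the amino terminus of all 3 ligands, had a change of 0.06 (adjusted p = 0.891) and Ackr1, a scavenger receptor for chemokines, -0.06 (adjusted p = 0.821). Of 9 clearance and cleavage genes measured, 1 was higher and 1 lower at that exposure, near the 9.47% and 7.9% of all genes. The one higher was Mmp12, the macrophage elastase (3.87 ± 0.27, adjusted p = 8.30e-15), and the one lower was Ackr4, a scavenger of CCL19, CCL21 and CCL25 (-0.86 ± 0.15, adjusted p = 2.00e-05).

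The genes whose levels followed each member most closely were taken by Pearson's r over the 50 arrays, after the mean of the arrays of each time was subtracted. These values are a description over arrays that share the study's groups. For Cxcl10 they were Cxcl11 (0.936), Ifi27l2b (0.902), Usp18 (0.895), Zbp1 (0.862) and Ccl2 (0.857). For Cxcl11 they were Cxcl10, Ifi27l2b (0.852), Usp18 (0.844), Mx2 (0.833) and Mx1 (0.829). For Cxcl9 they were Cxcl13 (0.818), Ly86 (0.797), Ptpn22 (0.777), Cd96 (0.769) and Clec9a (0.767), and for Cxcr3 they were Cd5 (0.904), Calhm6 (0.899), Cst7 (0.883), Rac2 (0.866) and C1h16orf54 (0.857). Cxcl9 stood at r = 0.501 with Cxcl10, rank 328 among the genes closest to Cxcl10, and at 0.536 with Cxcr3.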

How the data were processed

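Expression was measured on 50 Affymetrix rat arrays. The deposited values are log2 intensities that the authors made with RMA in Partek, per the submitters' processing notes. The sources used here give no version, no scan date and no word on which arrays were normalized together. RMA corrects background and compresses dim signals, so changes of dim genes such as Cxcl10 and Cxcl11 may be understated. The table held 31042 probe sets, of which 19063 carried 1 gene symbol in the platform's table, 572 several and 11407 none. Per gene the probe set with the highest mean over 50 arrays was kept, which gave 13438 genes. Each member had 1 such probe set except Cxcl9, which had 2.

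One linear model with a mean per group was fitted with limma 3.58.1 (R 4.3.3) and eBayes. Contrasts compared exposed with control rats, 4-week with 1-week changes, neighbouring concentrations and times. All tests were two-sided, and adjusted p-values are those of Benjamini and Hochberg for the whole table in each contrast. The fit was tested on simulated data. The within-array tests of 2 members used SciPy 1.17.1. Motifs were searched in Python 3.11.15 in RefSeq promoters of GRCr8, a build used for names, positions and sequence only. The number of arrays limits the precision.

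The 4 members and the 22 gene lists were chosen with earlier results of these data known. Named genes were the members, up to 4 called members of a list with the largest change at 0.60 mg/m3 for 4 weeks, a set of known inducers and removers of the ligands, and for each member the 5 genes most like it, leaving out symbols that start with LOC or RGD. Lists were counted, with no set test. Alternatives were median centring, array weights, leaving the dimmest 25% of genes out, quantile normalization, an intensity trend, other probe sets, a replicate block, fewer arrays in the fit, 4-week controls for 1-week groups and dropping each array once. The contrasts of members within arrays, and the alternatives for neighbouring concentrations, for times and for omitted arrays in list counts, were chosen after the data had been seen.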

Additional observations from a re-analysis of the deposited data

Results flagged for a closer look

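The 4-week change of a member exceeded its 1-week change, by limma's test of that difference, in 10 of 16 comparisons. Of all genes 7.22%, 21.4%, 27.4% and 27.7% were called in that direction, in rising order of concentration. At 0.04 mg/m3 the difference was 1.45 for Cxcl9 and 1.40 for Cxcr3 (adjusted p = 7.62e-04 and 0.00256), and at 0.08 mg/m3 it was 1.02 for Cxcr3 (adjusted p = 0.00891). At 0.15 mg/m3 the differences were 1.13 for Cxcl10, 1.01 for Cxcl11 and 1.12 for Cxcr3 (adjusted p = 0.0161, 0.0439 and 0.00268). At 0.60 mg/m3 they were 2.22 for Cxcl10, 1.88 for Cxcl11, 1.34 for Cxcl9 and 1.54 for Cxcr3 (adjusted p = 1.09e-05, 2.49e-04, 1.40e-04 and 6.85e-05). The 1-week controls enter each of these differences. On the first principal component they lay apart from all 4-week arrays and from the 1-week 0.15 and 0.60 mg/m3 arrays.

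One rat stood apart for Cxcl10. Replicate 2 of the 1-week 0.04 mg/m3 group had 5.31, against 3.81 for the next of its group, a gap of 0.85 of the group's range. For Cxcl11 the same rat had 3.81, inside its group. Of 40 groups tested in this way, chance alone flags about 1 in 20.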

How the results depend on the processing

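Over 92 member results and their alternatives, 1830 of 1921 values kept their status, whether called or not called. A call was lost in 56 and gained in 31, and 4 turned sign with a call in the main fit, the alternative or both. Among the 1830 were 57 values that changed sign without a call in either fit. The calls of Cxcl10 and Cxcl11 at 0.15 mg/m3 and of all 4 genes at 0.60 mg/m3 after 4 weeks were kept under every alternative that gave a value; without the dimmest 25% of genes Cxcl10 and Cxcl11 have none, since they were among them. The cause of the changes below was not tested unless stated.

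Array weights gave 0.890 for Cxcr3 at 0.08 mg/m3 for 4 weeks (now called). They gave 0.888 for the 4-week change minus the 1-week change of Cxcl11 at 0.15 mg/m3 (no longer called). Between neighbouring concentrations they gave calls of -0.518 for Cxcr3 (0.15 minus 0.08 mg/m3, 1 week). For the same pair at 4 weeks the calls were -0.421 and -0.536 for Cxcl9 and Cxcr3. For 0.60 minus 0.15 mg/m3 at 4 weeks they were 1.114 and 0.658 for Cxcl11 and Cxcr3. Median centring gave 0.595 for Cxcl9 at 0.08 mg/m3 for 4 weeks, and quantile normalization 0.552 and 0.559 for Cxcl9 at 0.04 and 0.08 mg/m3 for 4 weeks, none of them called, while the Cxcl11 difference between controls was called (0.669). An intensity trend and the fit of all probe sets left the 4-week change minus the 1-week change of Cxcl11 at 0.15 mg/m3 at 1.005 without its call. For Cxcl9 the second probe set gave -0.456 (0.04 mg/m3, 1 week) and 0.587 (0.04 mg/m3, 4 weeks), not called, and 0.448 between controls, called. The plain 4 weeks minus 1 week difference of Cxcl9 at 0.15 mg/m3, without controls, was 0.492 in the main fit (adjusted p = 0.0474). It lost its call with the mean of both probe sets (0.389), the first (0.492) and the second (0.287).

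Fewer arrays in the fit left values as they were and changed the spread. With the 25 arrays of the time the 1-week changes of Cxcl11 (0.484 at 0.15 mg/m3 and 0.553 at 0.60 mg/m3) and of Cxcl10 at 0.60 mg/m3 (0.527) were called, as were Cxcl11 for 0.08 minus 0.04 mg/m3 at 1 week (0.369) and Cxcr3 at 0.08 mg/m3 for 4 weeks (0.677, also without the dimmest genes). With the 10 arrays compared the 3 changes named first and that of Cxcl10 at 0.15 mg/m3 (0.444) were called, as were the differences between times of Cxcl10 (0.281) and Cxcl11 (0.542) in controls and of Cxcl11 at 0.04 mg/m3 (0.461), and Cxcl10 for 0.60 minus 0.15 mg/m3 at 4 weeks (1.172) was not. Against 4-week controls the 1-week Cxcr3 changes turned to 0.984, 1.032, 0.644 and 0.810, in rising order of concentration.

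Calls changed on leaving out 1 array for these results, given with their range. Against controls these were Cxcl9 at 0.04 (0.580 to 0.716) and 0.08 mg/m3 (0.555 to 0.749) and Cxcr3 at 0.08 mg/m3 (0.518 to 0.913) for 4 weeks, and Cxcr3 at 0.60 mg/m3 for 1 week (-0.733 to -0.380). For 4-week minus 1-week changes they were Cxcl9 at 0.08 mg/m3 (0.397 to 0.727) and Cxcl10 (0.860 to 1.450) and Cxcl11 (0.714 to 1.322) at 0.15 mg/m3. Between neighbours they were Cxcl9 (0.671 to 0.979), Cxcl10 (0.854 to 1.457) and Cxcl11 (0.628 to 1.368) for 0.60 minus 0.15 mg/m3 at 4 weeks and Cxcr3 for 0.15 minus 0.08 mg/m3 at 1 week (-0.557 to -0.277). Between times they were Cxcl9 in controls (0.227 to 0.486) and at 0.15 mg/m3 (0.351 to 0.659) and Cxcr3 at 0.08 mg/m3 (-0.524 to -0.119). The count of interferon gamma-induced genes higher at 0.60 mg/m3 for 4 weeks ran from 6 to 11.

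Replicate numbers did not pair the arrays: same-numbered arrays had mean correlations of -0.004 at 1 week and 0 at 4 weeks, and 19 and 11 of 50 pairs were above 0.1. A replicate block called 2257 genes at 0.60 mg/m3 for 4 weeks, against 2334 without it, and among members changed only Cxcl11 for 0.60 minus 0.15 mg/m3 at 4 weeks (0.945, adjusted p = 0.0497). Genes called for 4 weeks, in rising order of concentration, numbered 1734, 1147, 470 and 2334, against 5283, 3440, 1994 and 4297 with array weights and 3082, 2364, 1092 and 3574 with 25 arrays. With 10 arrays they were 3902, 1101 and 3551 at 0.04, 0.15 and 0.60 mg/m3. At 1 week and 0.04 mg/m3 the 3614 genes fell to 1570 with 25 arrays and 2274 with 10, and at 0.08 mg/m3 the 6537 fell to 3721 with 10. Against 4-week controls the 1-week counts were 10973 at 0.04 mg/m3 and 5729 at 0.15 mg/m3 (9063 against their own). Without 1 array the count was as low as 948 at 0.04 mg/m3 and 606 at 0.08 mg/m3 for 4 weeks and 2261 at 0.04 mg/m3 for 1 week. Median centring moved the share called higher for 4 weeks at 0.04, 0.08 and 0.60 mg/m3 to 38.6%, 39.2% and 40.6%, against 64.2%, 66.4% and 54.5%, and quantile normalization moved the first 2 to 52.3% and 53.3%.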
